A study of Mus musculus with 37 samples.

Results

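The solute carriers (SLCs) of mouse bone marrow-derived dendritic cells are described here through the open reading frames (ORFs) that the study's authors scored as translated. An ORF is the run of codons that a ribosome would read between a start codon and the first stop codon in its frame. Members were chosen by name alone: every ORF whose family of transcripts is named Slc followed by a number and a letter was kept. This gave 375 of 22367 ORFs, in 178 of 10418 families on 20 chromosomes. The 178 families carry 177 gene names, since Slc30a4 names 2 families on opposite strands. The name rule also took Slc4a1ap, Slc7a6os, Slc9a3r1 and Slc9a3r2, which are named after a carrier gene but do not encode carriers. It missed Slc49a4, Slc66a1 and Slc66a2, which are in the list under the older names Dirc2, Pqlc2 and Pqlc1.

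SLC proteins move small molecules across membranes: amino acids, sugars, nucleosides, vitamins, metal ions and inorganic anions at the cell surface, and metabolites, nucleotide sugars and metals at the membranes of mitochondria, the Golgi and lysosomes. Most use an ion gradient or exchange a substrate rather than hydrolysing ATP. In activated myeloid cells they are known for supplying glycolysis with glucose, exporting lactate, importing cystine for glutathione and arginine for nitric oxide synthesis, and drawing metals out of phagosomes. An ORF in the leader of an mRNA is read before the coding sequence and is known in several genes to lower or to regulate translation of the sequence that follows. Initiation at a further in-frame start changes the N-terminus of the protein.

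The cells were grown from C57BL/6J mice labelled as 6 to 8 weeks old, and on day 9 they were stimulated with lipopolysaccharide (LPS, 100 ng/mL), a bacterial component that activates them through a Toll-like receptor, or treated with mock. Ribosome-protected fragments of 28 to 34 nucleotides were sequenced from 37 libraries. Cycloheximide, which arrests elongating ribosomes, was applied at 100 ug/mL for 1 min in 16 LPS libraries over 8 times from 0.5 to 12 h, in 8 mock libraries and in 2 naive libraries. A further 8 LPS libraries and 1 naive library were made without inhibitor. Harringtonine (1 ug/mL for 5 min) was used in 1 library that mixed 5 LPS times between 0 and 9 h, and lactimidomycin (50 ug/mL for 30 min) in 1 library that mixed 8 times between 0 and 12 h. Both drugs hold ribosomes near start codons. The lysis buffer held cycloheximide for every library, per the labels' protocols.

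The only values analysed here are a single list of ORFs made for all libraries together. It gives each ORF's exons on the mm9 build and a score assigned by the authors, a whole number from 500 to 991 whose scale is not stated. Since no library has a value of its own in it, the LPS, mock and inhibitor groups could not be compared, the depth is unknown and no ORF has a replicate. Families are therefore described by counts and medians beside the same values over the whole list, with no test. Exact Clopper-Pearson 95% intervals cover counting error only, and ORFs of a family are not independent. Of the markers checked, 14 of 16 for dendritic cells, 7 of 8 for macrophages or monocytes, 6 of 6 for neutrophils, 4 of 5 for fibroblasts and 1 of 7 for T or B cells had an ORF in the list. Which cells of the culture a carrier's ORF comes from was thus not tested.

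The list covered 180 of 375 protein-coding SLC genes of the RefSeq table (48%, interval 42.8 to 53.2), the genes under older names included. Over all protein-coding genes of that table the share was 46.0%. Coverage differed between substrate groups, which follow the numbered SLC families and so do not hold for each member. Divalent metal carriers were listed for 7 of 8 genes, zinc carriers for 19 of 24, nucleotide sugar and related carriers of the Golgi and endoplasmic reticulum for 20 of 28, and mitochondrial carriers for 32 of 47. Amino acid carriers were listed for 27 of 64, sugar carriers for 9 of 30, monocarboxylate and other organic acid carriers for 6 of 19, and organic cation, anion and vesicular carriers for 9 of 39. Of 42 carriers listed for their known roles in myeloid cells, 36 had an ORF. Those without were Slc40a1, the iron exporter ferroportin, Slc15a2, Slc1a4, Slc2a6, Slc43a2 and Slc46a1. A carrier outside the list is not shown to be untranslated.

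**Figure D1:**
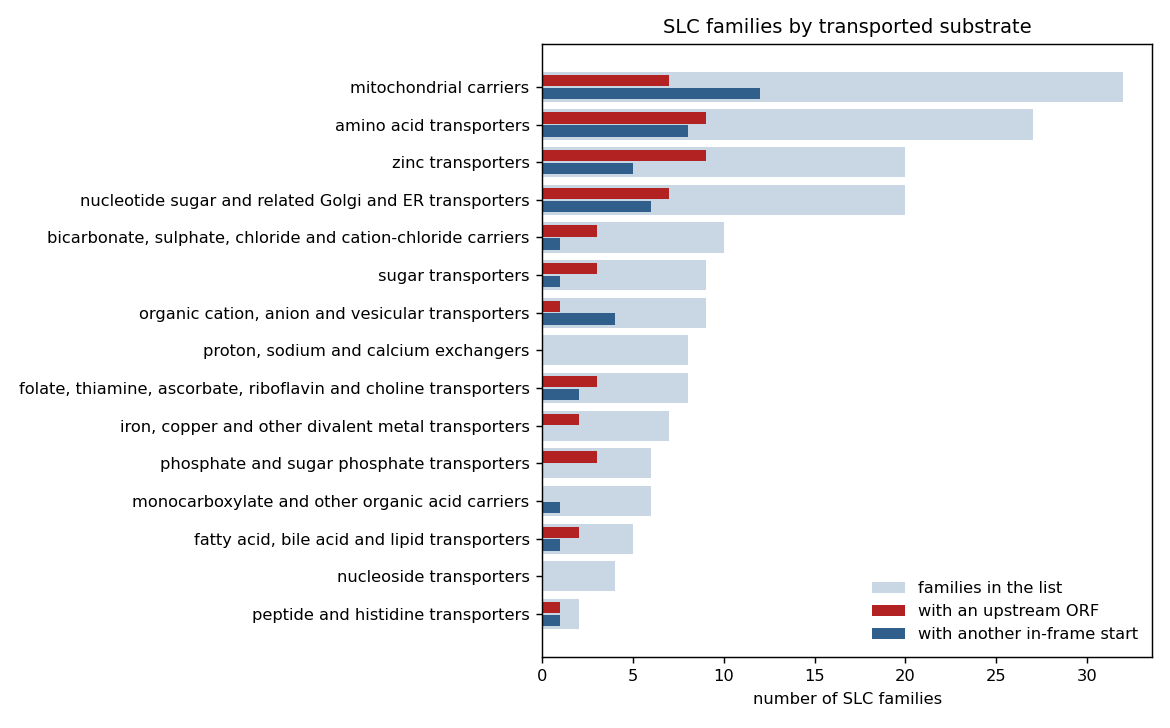
Number of SLC families (horizontal axis) in each substrate group (vertical axis). Pale bars are all families in the list, red bars those with an ORF that begins upstream of the main start and blue bars those with another in-frame start. Mitochondrial carriers are the largest group (32 families), and 9 of 20 zinc carrier families have an upstream ORF, against 20.2% of all families. Slc48a1 and the 4 genes that are not carriers are left out.

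Each family's longest ORF is taken as its main ORF. Main ORFs of SLC families had a median length of 479 codons (interval 458 to 502), against 435 over all families. Their median score was 920 (interval 881 to 935) against 926 over all. Without the families whose main ORF has under 200 codons, which was tried only once the values were known, both orders turned. The median length was then 488 codons in SLC families and 506 over all, and the median score 922 and 918. A score of 900 or more was found for 97 of 178 main ORFs (54.5%), where the background is 56.7%. A single ORF was listed for 65 families (36.5%, background 43.7%), 2 or 3 ORFs for 91 families and 4 or more for 22. For the larger numbers of ORFs no share over the whole list was taken. Slc17a5, Slc22a18, Slc35a5 and Slc36a4 had the most, with 6 each. No SLC ORF shared a coding base with an ORF of a family outside the SLC names. Overlap between SLC families was not checked.

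Several carriers known to feed the metabolism of activated dendritic cells were among the 18 SLC families with a main score of 981 or more. The same 18 held others, such as Slc31a2 (991), Slc6a4 (984), Slc16a6 (983), Slc39a2 (982) and Slc8a1 (981). The share over all families at this score was not counted. The main ORF of Slc2a1, the glucose transporter GLUT1, had 492 codons and a score of 987, while that of Slc2a3, the glucose transporter GLUT3, had 493 codons and a score of 793. Slc7a11, the cystine and glutamate exchanger, had 502 codons and also scored 987. Slc3a2, the heavy chain that brings Slc7a5 and Slc7a11 to the surface, had 526 codons and scored 988. Slc7a2, a carrier of arginine, had 658 codons and scored 987, and Slc7a5, the large neutral amino acid carrier LAT1, had 512 codons and scored 948. Slc38a2, a sodium-coupled neutral amino acid carrier, scored 986, and Slc6a6, the taurine carrier, scored 988. The lactate carriers Slc16a1 and Slc16a3 were apart from each other: the main ORF of Slc16a1 scored 951 and that of Slc16a3 scored 532. Shorter ORFs of Slc16a3 scored 638 and 648.

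Carriers known from phagosomes and lysosomes had main scores from 716 to 988 in the 8 families named here. The 8 were not taken from a full list of such carriers. Slc17a5 and Slc48a1 were not among the 42 carriers listed for their known roles in myeloid cells. Slc11a1, the phagosomal metal carrier that affects resistance to intracellular bacteria, had a single ORF of 548 codons (chr1:74421889-74432080, mm9) with a score of 985. Slc29a3, a lysosomal nucleoside carrier, had 475 codons and scored 987. Slc15a3 and Slc15a4, lysosomal histidine and peptide carriers, had 578 and 574 codons with scores of 964 and 970. Slc48a1, a haem carrier, had a main ORF of 146 codons and scored 988. Slc38a9, a lysosomal carrier that senses arginine, had 560 codons and scored 957. Lower scores were listed for Slc46a3, with 460 codons and a score of 890, and for Slc17a5, the lysosomal sialic acid carrier sialin, with 509 codons and a score of 716.

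Mitochondrial carriers, which share a compact fold of repeated helix pairs, had main ORFs with a median of 319.5 codons and a median score of 891. The ADP/ATP carriers Slc25a4 and Slc25a5 both had 298 codons, with scores of 988 and 987, and the phosphate carrier Slc25a3 had 357 codons and scored 990. No source used here says how footprints shared by close relatives such as these were assigned. The longest were the aspartate and glutamate carriers Slc25a13 (681 codons) and Slc25a12 (677), then Slc25a25 (502) and Slc25a24 (475), carriers of ATP-magnesium and phosphate. All 4 are known to carry calcium-binding domains at the N-terminus.

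**Figure D2:**
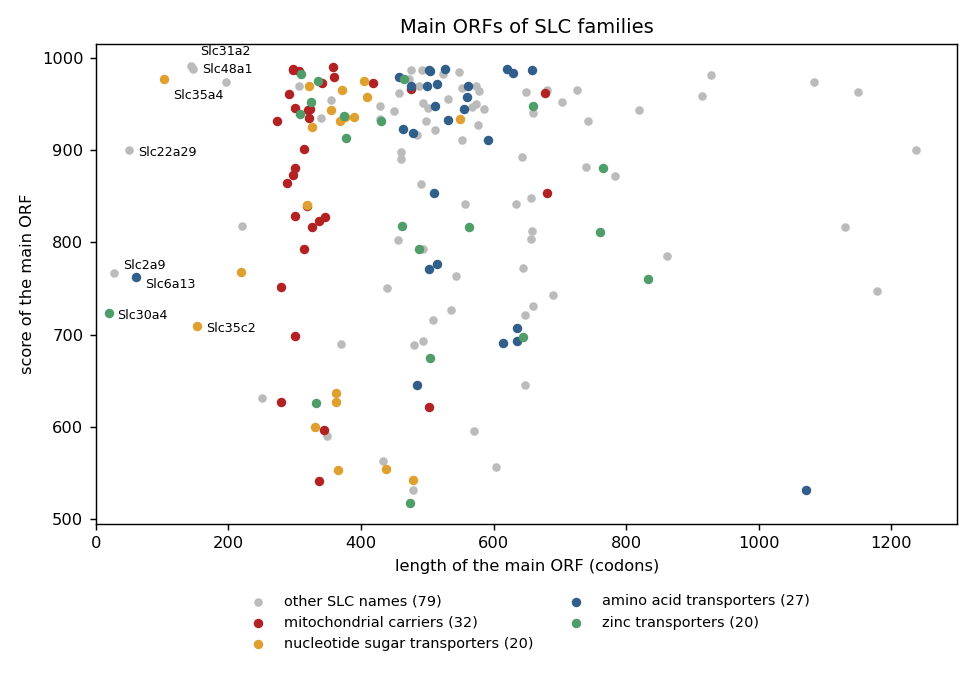
Length in codons (horizontal axis) and score (vertical axis) of the main ORF of each of 178 SLC families, with 4 substrate groups in colour and the rest in grey. The shortest main ORFs are named. Of the 178, 9 have under 200 codons and 97 score 900 or more.

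Main ORFs under 200 codons were found in 9 SLC families (5.06%, background 17.0%). The copper carriers Slc31a1 (196 codons, score 974) and Slc31a2 (143 codons, score 991) and the haem carrier Slc48a1 are small proteins, whereas the other 6 had main ORFs far below the length of their relatives. These were Slc35c2 with 153 codons, Slc35a4 with 103, Slc6a13 with 61, Slc22a29 with 50, Slc2a9 with 27 and the plus-strand Slc30a4 family with 19. The Slc2a9 ORF scored 767 and had 3065 transcript bases after its stop, and that of Slc6a13 scored 762 with 302 bases after it. Whether a longer coding sequence of these genes was missed was not tested.

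Slc35a4 is a known case of an mRNA whose leader encodes a microprotein that resides in mitochondria. Its longest listed ORF had 103 codons and a score of 977, with 394 transcript bases before the start and 2137 after the stop. A pair of splice forms of 68 and 32 codons shared a start near that stop, ran past it and both scored 767, and an ORF of 21 codons within the span scored 760. No ORF of the length of the other nucleotide sugar carriers, whose main ORFs had a median of 364 codons, was listed for this gene. By the rule that the longest ORF is the main ORF, Slc35a4 counts here as having no upstream ORF.

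Upstream ORFs were listed in 50 of 178 SLC families (28.1%, interval 21.6 to 35.3), where the background is 20.2%. These held 76 ORFs with 63 distinct stop codons. Of them 56 ended before the main start, in 38 families (21.3%, background 16.3%), and 20 ran over it in another frame, in 14 families (7.87%, background 5.30%). In 32 families there was a single upstream ORF, in 13 there were 2, in 2 there were 3, and Slc20a1, Slc25a51 and Slc35a5 had 4 each. Over the whole list, 1315 of 2103 families with an upstream ORF had 1, 452 had 2, 199 had 3 and 70 had 4. The transcript given for each of the 76 also held the main start, against 3324 of 3549 over the whole list.

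SLC leaders, the transcript bases before the main start, had a median of 239 bases against 186 over all families, and families with an upstream ORF had longer leaders (median 355.5 bases) than those without (194.5). Over the whole list these medians were 368 and 153. With leaders under 100 bases 3 of 34 SLC families had an upstream ORF (8.82%, against 4.13% of all families), with 100 to under 200 bases 6 of 40 (15.0%, against 13.2%), with 200 to under 400 bases 19 of 55 (34.5%, against 25.2%), and with 400 or more 22 of 49 (44.9%, against 42.4%). The share rose with leader length in both sets, and each SLC interval included the value over all families. These bins were chosen after seeing the data, and the part of leader length in the SLC share was not tested.

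Upstream ORFs under 30 codons made up 44 of the 76 in SLC genes (57.9%, interval 46.0 to 69.1), against 65.9% over the whole list. Those that end before the main start had a median of 15.5 codons (range 2 to 85), against 16 over the whole list, and those over the main start had a median of 49 (range 9 to 152), against 37.5. Of the 76, 18 had under 10 codons, 26 had 10 to 29, 27 had 30 to 99 and 5 had 100 or more. Over the whole list these counts were 1004, 1336, 1018 and 191 of 3549. The distance from the stop to the main start had a median of 68 bases (quartiles 30.3 and 164), against 117 over the whole list (quartiles 46 and 259.75). Relative to the main ORF, 16 of the 56 that ended before the main start were in its frame (28.6%), against 945 of 2674 over the whole list (35.3%), and 20 were in each of the other frames.

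**Figure D3:**
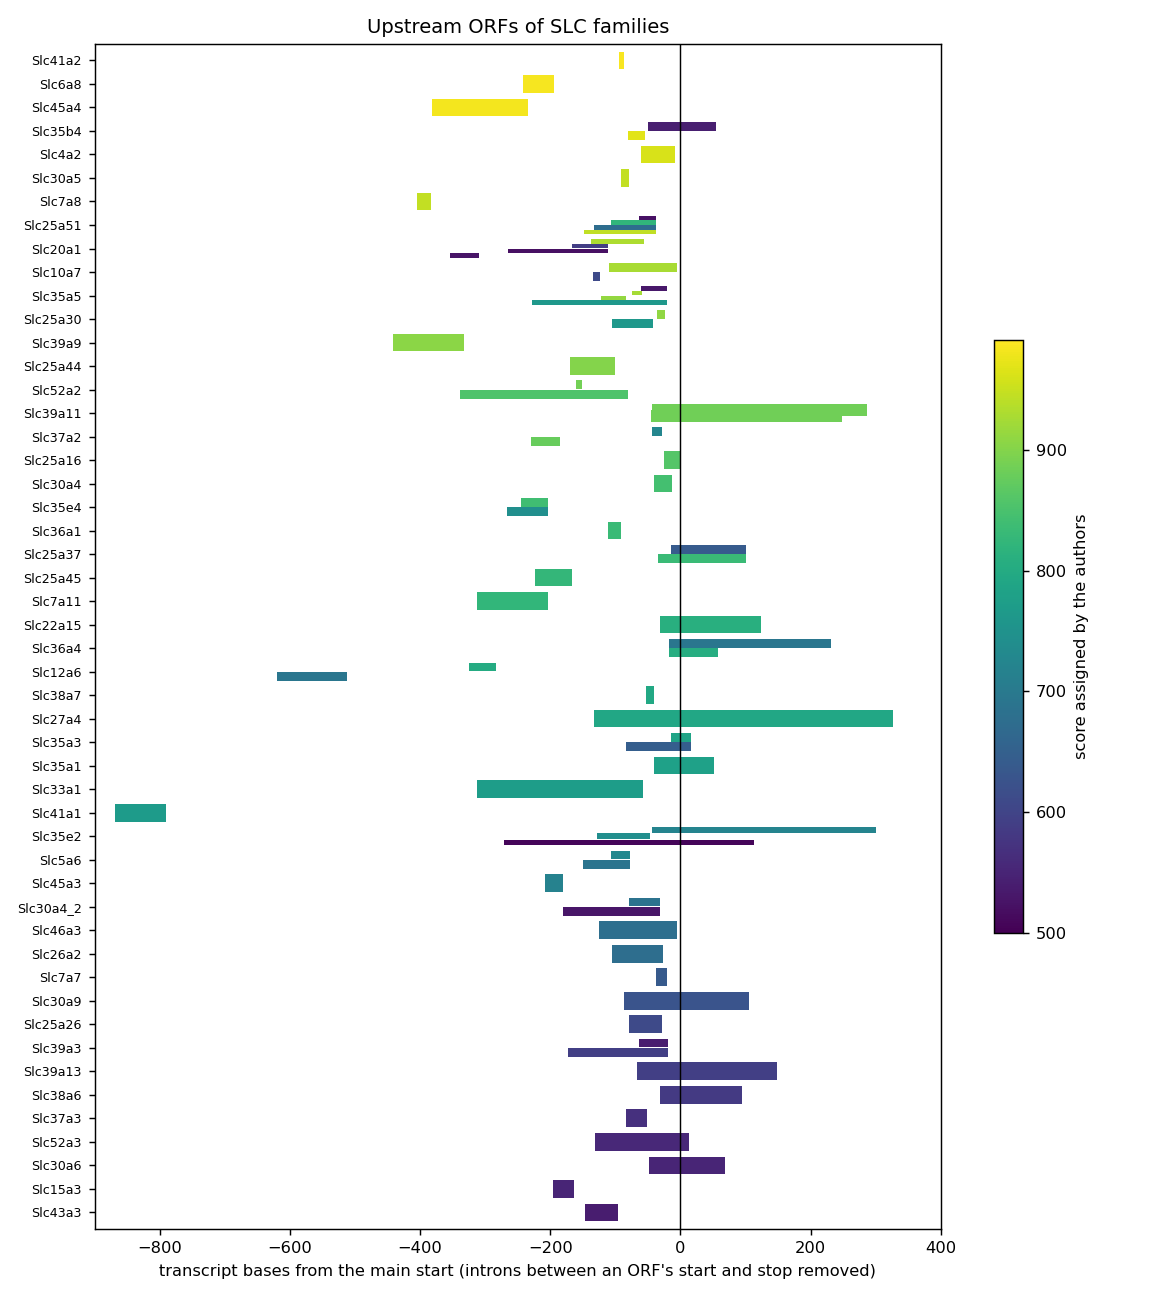
Position of each upstream ORF of 50 SLC families in transcript bases from the main start (horizontal axis, 0 at the first base of the main ORF, introns removed), coloured by score and ordered by the highest upstream score of the family. Bars that cross 0 are the 20 ORFs over the main start. The 2-codon ORF of Slc41a2 has the highest score (987), and that of Slc41a1 lies farthest upstream, ending 791 bases before the main start.

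In the amino acid carriers, upstream ORFs were listed in 9 of 27 families. For this group and those below the background over all families is 20.2%, and differences between groups were not tested. Slc7a11 had an ORF of 35 codons (chr3:50247388-50247495, minus strand, mm9) with a score of 823, which began 40 bases into the transcript and ended 204 bases before the main start. Slc7a8, a neutral amino acid carrier that pairs with Slc3a2, had an ORF of 6 codons with a score of 945, above the 933 of its main ORF. In Slc7a7, another partner of Slc3a2, an ORF of 5 codons ended 20 bases before the main start and scored 637. Slc6a8, the creatine carrier, had an ORF of 15 codons (chrX:70918886-70918933, mm9) with a score of 985, against 693 for its 635-codon main ORF. Slc36a4, a relative of the proton-coupled amino acid carriers, had 2 splice forms from a common start, of 82 codons (score 693) and 24 codons (score 805). They overlapped the main ORF by 232 and 58 bases. Slc36a1, Slc38a6, Slc38a7 and Slc43a3 each had 1. No upstream ORF was listed for Slc7a1, Slc7a2, Slc7a5, Slc1a5, Slc38a1 or Slc38a2.

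In the zinc carriers, 9 of 20 families had an upstream ORF (background 20.2%). Slc30a5, which loads zinc into the secretory pathway, had an ORF of 3 codons (chr13:101603212-101603223, minus strand) with a score of 946, against 811 for its 761-codon main ORF. Slc39a9 had an ORF of 35 codons with a score of 906 that ended 333 bases before the main start. Slc39a11 had 3 ORFs of 97 to 110 codons from a common start, splice forms with the same score of 884 that overlapped the main ORF by 248 or 287 bases. Slc30a6, Slc30a9 and Slc39a13 each had 1 ORF over the main start, of 38, 63 and 71 codons, with scores of 550 to 628. Slc39a3 had ORFs of 50 and 14 codons that ended 19 bases before the main start. On the minus strand, the Slc30a4 family had ORFs of 49 and 15 codons with a common stop 31 bases before a 430-codon main ORF.

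The other Slc30a4 family lies on the plus strand of the same chromosome, outside the span of the minus-strand main ORF (chr2:122510915-122528156). Its longest ORF had 19 codons (chr2:122478351-122478519, score 723), and an ORF of 8 codons (score 844) ended 13 bases before it. It counts above as a family with an upstream ORF by the longest-ORF rule. Without it, 49 of 177 genes had an upstream ORF.

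In the divalent metal group, Slc41a2, a magnesium carrier, had an ORF of only 2 codons (chr10:82779441-82779449, minus strand, mm9), with a score of 987 against 950 for its main ORF. Slc41a1, of the same family, had an ORF of 25 codons with a score of 767. The copper and iron carriers Slc31a1, Slc31a2, Slc11a1 and Slc11a2 had none.

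In the nucleotide sugar group, 7 of 20 families had an upstream ORF (background 20.2%). Slc35b4 had an ORF of 8 codons (chr6:34126909-34126935, minus strand) with a score of 969, and a 34-codon ORF that reached 55 bases into the main ORF and scored 541. Its main ORF of 331 codons scored 600. Slc35a5 had 4: ORFs of 68 and 12 codons with a common stop 21 bases before the main start, and within the span of the longer, in another frame, ORFs of 12 and 4 codons that scored 912 and 924. Slc35a1, the CMP-sialic acid carrier, had 1 ORF of 30 codons, with 52 of its bases in the main ORF. Slc35a3, the UDP-N-acetylglucosamine carrier, had ORFs of 32 and 9 codons with a common stop and an overlap of 16 bases. Slc35e2 had 3, of which those of 127 and 114 codons ran over the main start. Slc33a1, which carries acetyl-CoA into the endoplasmic reticulum, had an ORF of 84 codons with a score of 772.

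In the mitochondrial carriers, 7 of 32 families had an upstream ORF (background 20.2%). Slc25a51, the NAD carrier of mitochondria, had 4 nested starts of 36, 31, 22 and 8 codons with scores of 944, 673, 822 and 523, all ending 37 bases before the main start (chr4:45413047-45417704 for the longest, minus strand). Slc25a37, the iron carrier mitoferrin 1, had nested starts of 44 and 37 codons, with an overlap of 100 bases into the main ORF. Slc25a16 had an ORF of 7 codons with a score of 860 that ended 1 base before the main start, the shortest distance in the SLC families. Slc25a30 had ORFs of 20 and 3 codons, both in the frame of the main ORF. Slc25a44, Slc25a45 and the S-adenosylmethionine carrier Slc25a26 each had 1.

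Among the remaining carriers, Slc20a1, a sodium-coupled phosphate carrier, had ORFs of 50, 26, 17 and 14 codons, of which that of 26 codons scored 931 (chr2:129025215-129025295) and the others 521 to 589. Slc45a4 had an ORF of 48 codons (chr15:73436344-73436490, minus strand) with a score of 982, against 872 for its main ORF. Slc4a2, the chloride and bicarbonate exchanger AE2, had an ORF of 16 codons with a score of 961 that ended 9 bases before a main ORF of 1237 codons, which scored 900. Slc10a7 had an ORF of 34 codons with a score of 927 that ended 5 bases before the main start. In Slc52a2, a riboflavin carrier, an 85-codon ORF scored 853 and a 2-codon ORF 886. In Slc37a2, a sugar phosphate carrier of the endoplasmic reticulum, a 14-codon ORF scored 877 and a 4-codon ORF 725. The longest ORF over a main start was that of Slc27a4, a fatty acid carrier, with 152 codons, a score of 793 and an overlap of 326 bases. No upstream ORF was listed for the proton, sodium and calcium exchangers (8 families), the monocarboxylate group (6) or the nucleoside carriers (4). These groups are small, the background is 20.2%, and whether they differ from other families was not tested.

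The median score of the 76 upstream ORFs was 764.5, against 770 for both kinds over the whole list, and 15 of the 76 scored 900 or more (19.7%), against 829 of 3549 over the whole list (23.4%). In 17 of the 76 the score was above that of the own main ORF (22.4%), against 1173 of 3549 over the whole list (33.1%). None of the 20 ORFs over a main start reached 900, the highest being the 884 of Slc39a11. Their median score was 707, against 743 for the 692 ORFs of this class over the whole list. The share of the 692 at 900 or more was not counted.

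Another in-frame start, that is an ORF with the stop codon of the main ORF and a different start, was listed in 43 of 178 SLC families (24.2%, interval 18.1 to 31.1), where the background is 23.0%. There were 62 such ORFs from 57 distinct starts. For 58 the start was itself a codon of the main ORF, a median of 22 codons inside it (quartiles 10.3 and 57.8), against 23 over the whole list. Of these, 35 lay up to 30 codons inside and 23 lay deeper. Both an upstream ORF and another in-frame start were listed in 6 SLC families (3.37%, against 4.10% of all families), and neither in 91 (51.1%, against 60.9%).

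The shorter ORF scored above the main ORF in 28 of the 62 pairs (45.2%), against 42.7% over the whole list. Where the start lay up to 30 codons inside, this held for 19 of 35, and where it lay deeper for 5 of 23. Over the whole list it held for 858 of 1814 and 474 of 1333. The main ORFs of families with another in-frame start had a median score of 721, and those of the other SLC families 935. Over the whole list these medians were 763 and 945.

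Several carriers had a lower score on the longest ORF than on a slightly shorter one. Slc39a7, a zinc carrier of the endoplasmic reticulum, scored 518 for its 474-codon ORF and 946 for the 464-codon ORF (chr17:34165741-34168167, minus strand, mm9). Slc35c1, the GDP-fucose carrier, scored 637 for 363 codons and 962 for 350. Slc7a1, a carrier of arginine and lysine, scored 707, 901 and 744 for ORFs of 636, 622 and 506 codons. In Slc25a25 the 502-codon ORF scored 622, and a 469-codon ORF whose start is not a codon of the longer one scored 966. Slc38a10 scored 532 for 1071 codons and 691 for 1047, also from a start outside the longer ORF. Slc39a14, a carrier of zinc and iron, had starts giving 504, 500 and 489 codons with scores of 675, 771 and 612.

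In 4 SLC families the other start was the codon next to the main start. In Slc23a2, an ascorbate carrier, the 648-codon ORF scored 645 and the 647-codon ORF 957. In Slc38a1, a glutamine carrier, the 485-codon ORF scored 645 and the 484-codon ORF 945. In Slc9a3r2, a scaffold protein and no carrier, the scores were 631 for 251 codons and 780 for 250. In Slc27a1, a fatty acid carrier, the order was reversed, with 721 for 647 codons and 691 for 646. The 646-codon ORF was listed on another transcript, with 205 bases before its start against 95 for the main ORF. Over the whole list, 92 of 3147 ORFs whose in-frame start is a codon of the main ORF began 1 codon inside it.

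Of the 23 ORFs that began over 30 codons inside, 18 scored below the main ORF. For 10 of the 23 the main ORF scored 900 or more. Among them Slc17a5, Slc22a18 and Slc35e1 each had a pair of splice forms from a common start with equal scores, counted apart. Slc7a5 had a 289-codon ORF that began 223 codons inside and scored 613, against 948. Slc1a5, a carrier of neutral amino acids, had 372 codons with a score of 684 beside 555 codons with 945. Slc15a4 had 410 codons with 612 beside 574 with 970. Slc30a1, which exports zinc, had starts 242 and 471 codons inside, with scores of 592 and 588 against 793. The deep start scored higher in 5 families: Slc25a36 (834 against 541), Slc35e3 (881 against 553), Slc25a16 (781 against 597), Slc16a3 (648 against 532) and Slc7a1 (744 against 707).

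**Figure D4:**
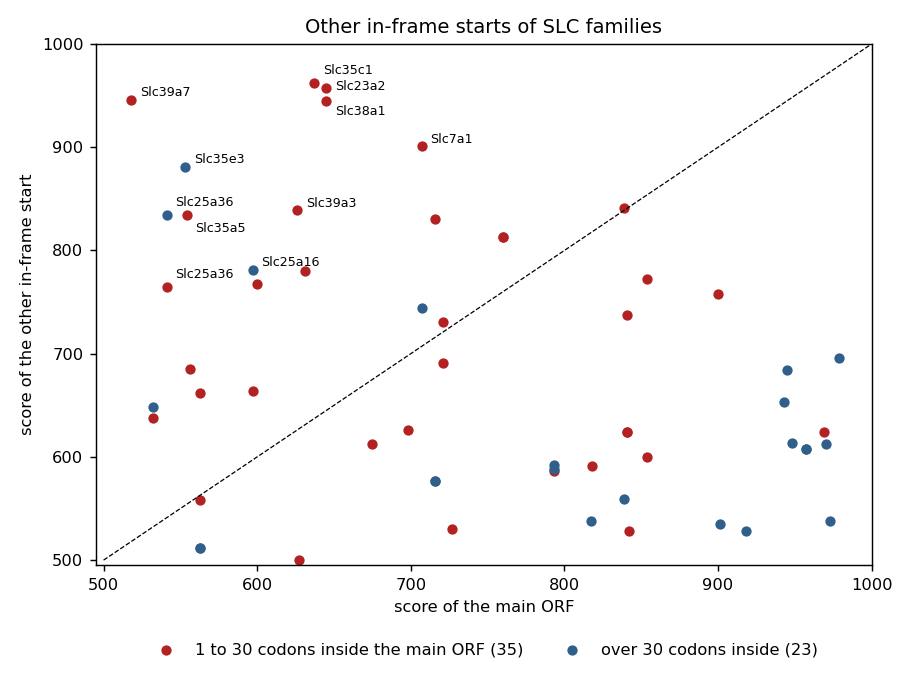
Score of the main ORF (horizontal axis) and of the other in-frame start (vertical axis). The 58 ORFs shown have a start that is a codon of an SLC main ORF. Splice forms from a common start are separate points that overlap. The dashed line marks equal scores. Red points (35) begin 1 to 30 codons inside and blue points (23) deeper. Of the red points 19 lie above the line, and of the blue points 5, with genes named where the gain is at least 180.

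In Slc16a3, the lactate exporter MCT4, every listed ORF scored low. Its 478-codon main ORF scored 532, and starts 8 and 57 codons inside scored 638 and 648. Slc22a18 had 5 other ORFs with the main stop, the most of any SLC family, with 354 to 410 codons and scores from 512 to 701 against 563 for 433 codons. In Slc17a5 the 509-codon ORF scored 716, a start 14 codons inside scored 830, and ORFs of 29 and 5 codons within the main span scored 651 and 619.

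Splice variants with the start and stop of the main ORF were listed 27 times in 25 SLC families, with a median score of 936. They were 7.2% of SLC ORFs, against 10.9% of all ORFs, where their median score was 944. Other in-frame isoforms numbered 15 in 12 families (4.0% of SLC ORFs, against 3.99% of all). They had a median of 166 codons and a median score of 624, against 208 codons and 693 over the whole list. Slc38a6 had a 125-codon isoform with a score of 971 beside its 457-codon main ORF (979), and Slc25a37 a 166-codon isoform with 968 beside 322 codons (935). Slc11a2, the iron carrier DMT1, had an isoform of 561 codons with a score of 844 beside 568 codons with 947, which end at different stops. A main stop 50 or more bases before the last exon junction was found in 10 SLC families (5.62%, background 6.26%), among them Slc7a2, Slc22a5, Slc26a6 and Slc36a1. A main ORF in a single coding exon was found in 4 (2.25%, background 7.02%), namely Slc10a3, Slc25a51, Slc2a9 and Slc35g1. ORFs in another frame or exon within the main span numbered 15 in 11 families (4.0% of SLC ORFs, against 5.59% of all), the highest being a 24-codon ORF of Slc25a44 with a score of 937. No SLC ORF lay downstream of a main stop, where the whole list had 374 of 22367 (1.67%). With 0 of 375 the exact interval reaches 0.979%.

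In 35 SLC families (19.7%, background 19.8%) the highest score lay on another ORF than the longest. That ORF was another in-frame start in 17, an upstream ORF in 12, an ORF within the main span in 4, an ORF over the main start in 1, Slc22a15, and an isoform in 1, Slc25a37. The largest gaps were 428 for Slc39a7, 371 for Slc25a36, whose highest score was on a 20-codon ORF within the main span, 370 for Slc35a5 and 369 for Slc35b4.

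Other transport genes are given beside the SLC families as a description. Genes of the ABC family, mostly ATP-driven carriers, had an upstream ORF in 4 of 27 families (14.8%, interval 4.19 to 33.7), a median main ORF of 841 codons and a median score of 868. The 27 include Abce1, Abcf1, Abcf2 and Abcf3, soluble proteins that are not carriers. MFSD proteins, relatives of the sugar carriers, had one in 2 of 13 families, with a median of 476 codons and a score of 930. Ion pumps and ATP synthase subunits named Atp had one in 6 of 54 families (11.1%, interval 4.19 to 22.6), with a median score of 967. Aquaporins, sideroflexins, mitochondrial pyruvate carriers, Spns carriers and Xpr1 together had one in 3 of 12. The SLCO organic anion carriers, which the name rule did not take, had none in 2 families, and 1 of the 2 had another in-frame start. The intervals of these groups overlap that of the SLC families (21.6 to 35.3), and the difference between them was not tested.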

How the data were processed

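Each line of the list that the authors deposited gives an ORF, the exons of its transcript and a score. The score is the authors' own, a whole number whose scale is not stated, and ORFs were ranked or filtered by it only inside the list. The submitters' processing notes name Bowtie2, TopHat and mm9 without roles or versions. No source used here names the ORF caller, its settings or its transcripts. The labels name the list for all 37 libraries, which fall into 28 groups. No line scores under 500, and presence and score can move with expression and depth.

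Coding positions were rebuilt from the blocks with Python 3.11.15. The length in the name matched them for all 22367 ORFs, the stop codon not counted. Within a family, chromosome and strand, the main ORF was the longest, with ties broken by score and name. The rest were classed by the codons they share with it and by position. Names were matched to RefSeq symbols of another assembly, GRCm38.p6, of which no coordinates were used: 176 of 177 matched a symbol and 1, Slc24a6, an older name. Intervals are exact Clopper-Pearson, or exact binomial ones for medians, at 95% (SciPy 1.17.1). The class rules were tested on simulated data of 300 families with 2100 ORFs, and every ORF received the class it was made with. The simulation held no splice variants or in-frame isoforms, and all ORFs of a family shared the same exons. Those classes and families with several transcripts were thus not tested. Start codons were not read, and no sequence is printed.

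The members, lists and settings were chosen with earlier results of these data known. Genes were named by a rule: 42 carriers in any case, families with an upstream ORF, the families with most ORFs in each group, the in-frame starts with the largest gain in score, and members of counts of 5 or fewer. Some genes named for a low score or a short main ORF were chosen after their values were seen. Alternatives were stricter scores, a minimum length, another main ORF, 1 ORF per stop codon, 1 family per gene and narrower or wider classes.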

Additional observations from a re-analysis of the deposited data

How the results depend on the processing

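The share of SLC families with an upstream ORF (28.1%, 50 of 178) was 7.14% (8 of 112) with only scores of 900 or more kept. It was 11.2% (14 of 125) at or above the median score of 847 and 15.3% (27 of 176) with a minimum of 30 codons. When ORFs over the main start were not counted it was 21.3% (38 of 178). Over all families the same settings gave 5.70%, 7.92%, 8.60% and 16.3%. Under a filter on score or length, families with no ORF left dropped out. The longest ORF left became the main ORF, also where it had been an upstream ORF. Of the 15 SLC upstream ORFs at 900 or more, 8 still counted as upstream at that setting. The share with another in-frame start (24.2%) was 0% at both stricter scores and, by construction, with 1 ORF per stop codon, and 37.6% with splice variants counted. Over all families these were 0.427%, 1.20%, 0% and 37.8%. In the full list 6 SLC ORFs of this class scored 900 or more. Their longer main ORFs scored under 900 and were filtered out, so each of the 6 was then taken as the main ORF. The median main score (920) was 957 and 948 at the stricter scores and 935.5 with the main ORF taken as the one of highest score. Upstream ORFs under 30 codons (57.9%) were 75% of the 8 that remained upstream of a main ORF chosen at a score of 900 or more and, by construction, 0% with a minimum of 30 codons. Every other setting left these values, and the median main length in all settings, inside the interval of the SLC value. These included 2 settings chosen after seeing the data, without the 4 genes that are not carriers and without main ORFs under 200 codons. In the latter the order against all families turned, at 488 against 506 codons and a score of 922 against 918. The cause was not tested beyond what a filter removes by construction. The planned comparison of main ORFs with RefSeq protein lengths was not run, since no protein table was used here. No paired analysis was possible because the list holds no value per library, and leaving out a library was not possible for the same reason. The depth behind each ORF is unknown, so an ORF that is not listed is not shown to be untranslated.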

Other observations

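The 76 upstream ORFs of SLC genes had 63 distinct stops. Nested starts with a common stop were listed in Slc25a51 (4 starts), Slc20a1 (ORFs of 50 and 17 codons), Slc35a5 (68 and 12), Slc35e4 (20 and 13), Slc5a6 (23 and 9), Slc39a3 (50 and 14), Slc25a37 (44 and 37), Slc35a3 (32 and 9) and the minus-strand Slc30a4 family (49 and 15). In Slc5a6, which carries biotin and pantothenate, the inner start scored 729 and the outer 689. In Slc35e4 the inner start scored 841 and the outer 743. The longest start of Slc25a51 scored highest (944), while in Slc39a3 the scores of 592 and 539 were close. The start with the higher score was thus not always the outer one.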
